A study of Mus musculus with 6 samples.

Results

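R-spondins, their Lgr receptors and the ubiquitin ligases ZNRF3 and RNF43 set how strongly a cell answers Wnt ligands, and their transcripts were measured here in mouse epidermis during blister healing. The 8 genes Rspo1, Rspo2, Rspo3, Lgr4, Lgr5, Lgr6, Znrf3 and Rnf43 were taken by symbol from count tables of 24014 genes, and all 8 were found. The 3 blister libraries came from epidermis of wild type dorsal skin that was healing after a suction blister, in which negative pressure lifts the epidermis off the dermis. The 3 control libraries came from unblistered wild type dorsal skin. Both groups were newborn mice sampled on postnatal day 2, and both were detached with trypsin overnight and passed through a filter as mixed epidermal cells. Nothing in the labels tells whether the 3 libraries of a group represent separate animals, so every p-value reflects only library-to-library variation, some of it possibly technical.

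ZNRF3 and RNF43 are membrane ligases that remove Frizzled receptors from the cell surface and so damp Wnt signalling. An R-spondin bound to LGR4, LGR5 or LGR6 draws these ligases away, which leaves more Frizzled on the membrane. The ligases and Lgr5 are themselves known targets of β-catenin. In skin, Lgr5 marks the lower hair follicle and Lgr6 the upper follicle and parts of the epidermis, while dermal cells, those of the dermal papilla among them, are a known source of R-spondins.

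All 8 transcripts were lower in each blister library than in any control library. By role, the blister mean was 6.16% of the control mean for Rspo1, 6.15% for Rspo3 and 22.3% for Rspo2. It lay between 16.4% (Lgr5) and 42.5% (Lgr4) for the receptors, and was 65.6% for each ligase. Of 14028 genes tested, 3248 (23.2%) likewise had every blister library below every control library. With edgeR's quasi-likelihood F-test, adjusted by Benjamini-Hochberg over all genes, 6 of the 7 members that could be tested fell. Of all tested genes 21.3% were called in either direction, 11.6% lower and 9.74% higher. Rspo2 was too low to be tested. Rspo1 and Rspo3 reached the minimum level of the test in control libraries but not in every blister library, so that they could hardly have been tested without being lower in the blister group. Of the 5 members that reached it in all 6 libraries (the 3 receptors and both ligases), 4 were called lower.

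Total counts ran from 7600567 to 12972196 in blister libraries and from 11743139 to 15912863 in control libraries. Keratinocyte markers were abundant throughout, with summed levels of 105300 to 193300 CPM (counts scaled to library total and TMM factor) in blister libraries and 63230 to 87720 CPM in control libraries. Markers of neutrophils summed to 260.1 to 868 CPM in blister and 4.55 to 13.7 CPM in control libraries. S100a8 and S100a9 held most of the sum in each blister library, and which cells held these transcripts was not tested. Of 7 melanocyte markers 5 fell (median log2 fold change -0.95), where 11.6% of all tested genes were called lower. Of 5 tested endothelial markers 1 (Kdr) was called lower, but their median log2 fold change was -2.47. Kdr did not reach the minimum level of the test in every blister library. The endothelial markers summed to 4.22 to 10.6 CPM in blister and 9.67 to 72.2 CPM in control libraries. The 5 tested macrophage and Langerhans cell markers had a median log2 fold change of -0.17, that of Epcam. Their values ran from -0.43 (Mrc1) to 1.34 (Cd207), with 0 called in either direction. Over all genes 1367 were called higher and 1626 lower in blister. Those numbers were 988 and 1886 with upper-quartile scaling and 544 and 2831 with library size alone. Library size alone put the median log2 fold change of all tested genes at -0.25, against 0.00 with TMM. In bulk samples such as these, fewer cells of a type and less RNA per cell cannot be told apart.

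**Figure D1:**
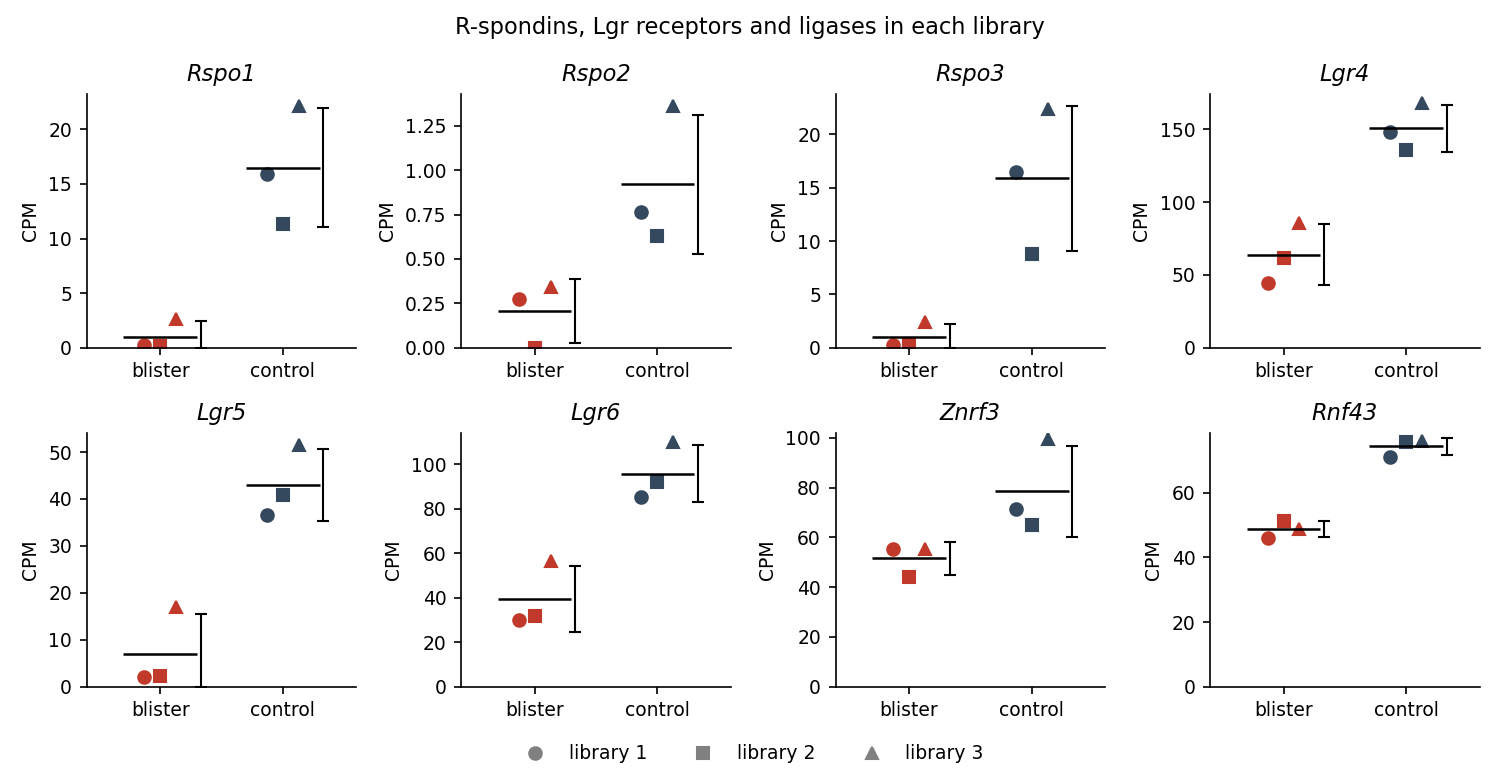
CPM of each member (vertical axis from 0, a scale of its own per gene) in 3 blister and 3 control libraries. Symbols mark the library number, bars the mean, and error bars the SD, cut at 0. No blister library reaches the lowest control library for any of the 8 genes, and blister library 3 lies above the other blister libraries for the R-spondins and the receptors.

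The ligand genes Rspo1 and Rspo3 were close to absent from 2 of the blister libraries. Rspo1 had 3, 1 and 31 counts in blister libraries 1, 2 and 3, against 207, 162 and 390 counts in control libraries 1, 2 and 3. Scaled to depth, these were 0.275, 0.138 and 2.63 CPM in blister and 15.9, 11.3 and 22.2 CPM in control libraries. Blister library 3 thus held most of the Rspo1 counts of its group and still stood below the lowest control. The log2 fold change of Rspo1 was -3.90 ± 0.77 (SE, edgeR adjusted p = 0.0167). Rspo3 had 3, 2 and 28 counts in blister libraries and 215, 125 and 393 counts in control libraries, or 0.275, 0.275 and 2.38 CPM against 16.5, 8.75 and 22.4 CPM. Its log2 fold change was -3.91 ± 0.74 (SE, edgeR adjusted p = 0.0149), the 30th lowest of all tested genes, with Rspo1 at the 35th place.

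Both values depended on blister library 3. The control mean was 16.2 times the blister mean for Rspo1 and 16.3 times for Rspo3 with all libraries, and 79.8 and 57.6 times when blister library 3 was left out. The log2 fold changes without it were -6.17 (Rspo1) and -5.79 (Rspo3). The edgeR call of Rspo1 was lost without blister library 1 (adjusted p = 0.0533) and without control library 1 (adjusted p = 0.052), and that of Rspo3 held in all 6 fits with a library left out.

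Rspo2 was rare everywhere. It had 3, 0 and 4 counts in blister libraries and 10, 9 and 24 counts in control libraries, or 0.275, 0 and 0.34 CPM against 0.767, 0.63 and 1.37 CPM. The groups did not overlap, and an exact two-sided permutation test on CPM gave p = 0.1, the smallest that 3 against 3 libraries allow. Pooled over libraries, control exceeded blister by a ratio of 4.1 (exact 95% interval 1.83 to 10.8, covering counting error only). The log2 ratio of mean CPM was -2.17, and between -2.74 (without blister library 3) and -1.58 (without blister library 2) with single libraries left out. With no filter on low counts, edgeR gave Rspo2 an adjusted p of 0.0983. Rspo4, the remaining R-spondin gene and not among the 8, had 0 counts in each blister library and 5, 1 and 10 counts in control libraries. Taking 3 counts over the blister group as the limit that a count of 0 allows, the pooled control level was 3.56 times that limit. The counting error of the control counts is left out of this ratio.

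Most dermal papilla markers were lower beside the R-spondins, and dermal fibroblast markers were lower in part. The 8 dermal papilla markers summed to 30.8, 35.2 and 58.4 CPM in blister libraries 1, 2 and 3 and to 173, 126 and 201 CPM in control libraries 1, 2 and 3, and 6 of 8 were called lower (median log2 fold change -2.94). Of all tested genes 11.6% were called lower. Like Rspo1 and Rspo3, this sum was highest in library 3 of each group, but so were Rspo2, Lgr4, Lgr5 and Lgr6. Prdm1 held most of it in blister, at 25.0, 25.2 and 34.1 CPM in libraries 1, 2 and 3. Corin, Hhip, Alx4 and Hey2, like Rspo1 and Rspo3, did not reach the minimum level of the test in every blister library. Sox2 and Crabp1 were not called (log2 fold change -1.26 and 0.40). The 12 dermal fibroblast markers summed to 729, 1474 and 660 CPM in blister and 1376, 1777 and 8259 CPM in control libraries, so the groups overlapped. Of the 12, 6 were called lower (median -3.03), and of these Lum and Twist2 also missed the minimum level of the test in a blister library. Blister library 2 had more of that sum than control library 1, and blister library 3 had the least. Postn, an adhesion protein gene that keratinocytes may also express, held much of the blister sums. Without it, in a sum chosen after its values were seen, the other 11 markers came to 130, 930 and 233 CPM in blister and 1114, 1387 and 7360 CPM in control libraries. That sum did not overlap between the groups. No marker of either list was at 0 throughout a group. The part of dermal cells in the fall of the R-spondins was not tested.

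**Figure D2:**
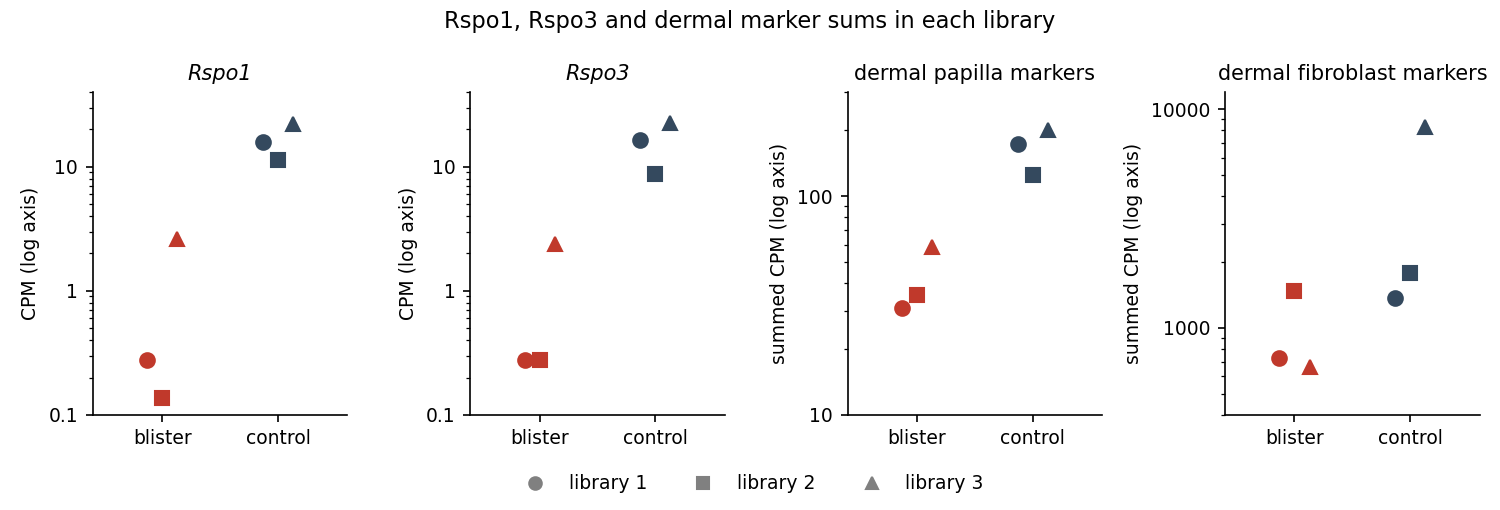
CPM of Rspo1 and Rspo3 and summed CPM of 8 dermal papilla and 12 dermal fibroblast markers in each library (log axes, symbols mark the library number). Rspo1, Rspo3 and the papilla sum separate the groups, while the fibroblast sum of blister library 2 (1474 CPM) exceeds that of control library 1 (1376 CPM).

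The receptor genes Lgr4 and Lgr6 fell by similar amounts and Lgr5 was lower still. Lgr4, the most broadly expressed of the receptors, stood at 44.6, 61.7 and 85.7 CPM in blister libraries 1, 2 and 3, against 148, 136 and 168 CPM in control libraries. Every blister library lay well below the lowest control, and the log2 fold change was -1.23 ± 0.23 (SE, edgeR adjusted p = 0.0142). Lgr6 stood at 30.01, 31.5 and 56.5 CPM in blister and 85.3, 91.99 and 109.9 CPM in control libraries, and its log2 fold change came to -1.28 ± 0.25 (SE, adjusted p = 0.0167 in edgeR). Blister library 3 was again the highest of its group for both, at 56.9% of the control mean for Lgr4 and 59.0% for Lgr6. The Lgr6 call was lost without blister library 1 (edgeR adjusted p = 0.0573), and that of Lgr4 held in every fit with a library left out.

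Lgr5, the follicle stem cell marker, varied most among the receptors. Its levels were 2.02, 2.2 and 16.9 CPM in blister libraries 1, 2 and 3 and 36.5, 40.9 and 51.6 CPM in control libraries. Blister libraries 1 and 2 held 4.7% and 5.12% of the control mean and blister library 3 held 39.3%, so that the highest blister value was 8.37 times the lowest, against 1.41 times among controls. The log2 fold change was -2.56 ± 0.72 (SE, edgeR adjusted p = 0.0428) and -4.34 ± 0.23 without blister library 3 (edgeR adjusted p = 0.000956). The call was lost without blister library 1, blister library 2, control library 1, control library 2 or control library 3 (edgeR adjusted p of 0.103, 0.0883, 0.0945, 0.093 and 0.098), and with robust estimation (adjusted p = 0.0538).

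Most of the hair follicle markers fell beside the receptors. The 8 that fell of 11 included Shh, Lhx2 and Sox9, where 11.6% of all tested genes were called lower. The median log2 fold change of the list was -1.7. The other 3 were Krt17 (log2 fold change 0.58, edgeR adjusted p = 0.0526), Foxn1 (0.10, adjusted p = 0.731) and Gata3 (-0.22, adjusted p = 0.261). The summed level of the list, most of it Krt17, ran from 3947 to 5094 CPM in blister and from 3807 to 5550 CPM in control libraries, so it overlapped. Of 5 markers of the upper follicle and sebaceous gland, Plet1 rose (log2 fold change 1.56, edgeR adjusted p = 0.00814) and Lrig1 fell (-0.82, edgeR adjusted p = 0.0471). Scd1, Krt79 and Mgst1 were not called (log2 fold change -0.97, -0.38 and -0.46), and the summed level of the 5 overlapped, at 2576 to 3669 CPM in blister and 2821 to 5216 CPM in control libraries. The part of follicle cells in the fall of the receptors was not tested.

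Lgr5 also made up a smaller share of the receptor transcripts. Scaled to exon length, Lgr5 made up 1.62%, 1.4% and 6.73% of the summed Lgr4, Lgr5 and Lgr6 level in blister libraries and 8.65%, 9.83% and 10.1% in control libraries. Lgr6 made up 36.0%, 30.1% and 33.7% in blister and 30.3%, 33.2% and 32.3% in control libraries, which overlapped. The summed level itself was 12.2, 15.3 and 24.4 CPM per kb in blister and 41.1, 40.5 and 49.7 CPM per kb in control libraries.

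The ligase genes had the smallest fold differences of the 8, and Rnf43 the smallest spread. Rnf43 stood at 46.2, 51.3 and 48.9 CPM in blister and 71.2, 75.8 and 76.2 CPM in control libraries. The values within a group lay within 1.11 times of each other in blister and 1.07 times in control, and the log2 fold change was -0.61 ± 0.10 (SE, edgeR adjusted p = 0.0112), called in all 17 alternative fits. Znrf3 stood at 55.3, 44.1 and 55.3 CPM in blister and 71.3, 65.0 and 99.4 CPM in control libraries. The groups did not overlap either, but control library 3 stood apart from the other controls, and the log2 fold change of -0.61 ± 0.19 (SE) missed the threshold (edgeR adjusted p = 0.0542). Without control library 3 it was -0.40 (adjusted p = 0.133). Znrf3 passed with upper-quartile scaling (adjusted p = 0.0369), with library size alone (adjusted p = 0.0184) and in DESeq2 (adjusted p = 0.0215). Blister library 3 did not stand above the other blister libraries for either ligase.

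**Figure D3:**
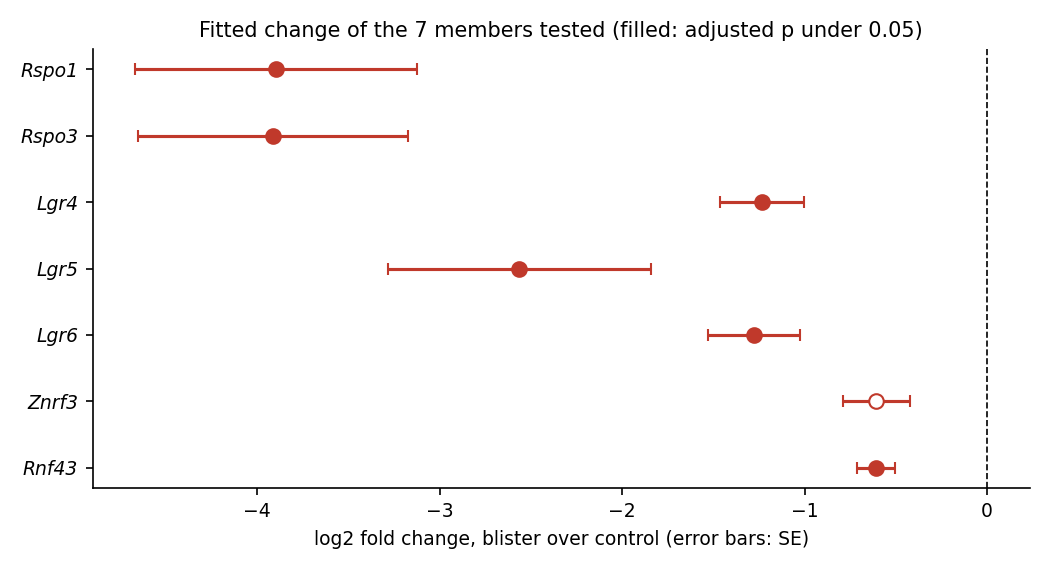
Log2 fold change, blister over control, of the 7 members that could be tested, with SE as error bars. Filled symbols have an edgeR adjusted p under 0.05. Rspo1 and Rspo3 lie at -3.90 and -3.91, Lgr5 at -2.56, Lgr4 and Lgr6 at -1.23 and -1.28, and both ligases at -0.61.

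Whether members of the same role moved alike was asked with the log2 ratio of 2 genes inside each library, which does not depend on scaling. In all 7 pairs were compared by exact two-sided permutation tests, whose smallest p is 0.1. The log2 ratio of Lgr4 to Lgr5 averaged 3.85 ± 1.32 in blister and 1.82 ± 0.17 in control libraries (SD, n = 3 each), a difference of 2.03 (exact permutation p = 0.1, adjusted 0.175 over 7 pairs). That of Lgr5 to Lgr6 averaged -3.13 ± 1.21 in blister and -1.16 ± 0.07 in control libraries, a difference of -1.97 (exact permutation p = 0.1, adjusted 0.175). Both ratios separated the groups completely, as far as 3 libraries each can.

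Other pairs overlapped between the groups. The log2 ratio of Lgr4 to Lgr6 averaged 0.71 ± 0.22 in blister and 0.66 ± 0.12 in control libraries (exact permutation p = 0.8), that of Znrf3 to Rnf43 0.07 ± 0.26 and 0.06 ± 0.31 (exact permutation p = 0.9), and that of Rspo1 to Rspo3 -0.20 ± 0.47 and 0.10 ± 0.24 (exact permutation p = 0.6), with n = 3 each. Such p-values do not show that these pairs moved by the same amount. The 2 pairs with Rspo2 separated the groups (exact permutation p = 0.1 each), on 0 to 4 counts of Rspo2 in a blister library.

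Levels of different genes were set side by side per kilobase of exon, with lengths from the GENCODE annotation of a later build. In control libraries Lgr4 was highest at 25.6 ± 2.78 CPM per kb (SD, n = 3), followed by Lgr6 at 13.97 ± 1.86, Rnf43 at 11.3 ± 0.421, Znrf3 at 9.96 ± 2.32, Rspo1 at 8.50 ± 2.81, Rspo3 at 5.14 ± 2.21, Lgr5 at 4.19 ± 0.756 and Rspo2 at 0.180 ± 0.0765. Neighbours in that order from Rnf43 to Lgr5 overlapped between libraries, while Lgr4 lay clear of Lgr6, Lgr6 of Rnf43, and Lgr5 of Rspo2. In blister libraries the mean levels of the ligases, 7.44 ± 0.395 (Rnf43) and 6.53 ± 0.823 CPM per kb (Znrf3), were above that of Lgr6 at 5.74 ± 2.17 CPM per kb. Lgr6 overlapped with both, since in blister library 3 it stood at 8.24 CPM per kb, above Rnf43 at 7.46 and Znrf3 at 7.003 CPM per kb. Lgr4 at 10.9 ± 3.51 CPM per kb overlapped with Rnf43. Lgr5, Rspo1 and Rspo3 followed at 0.686 ± 0.832, 0.524 ± 0.724 and 0.316 ± 0.393 and overlapped with each other, and Rspo2 was last of the 8 at 0.0401 ± 0.0353.

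**Figure D4:**
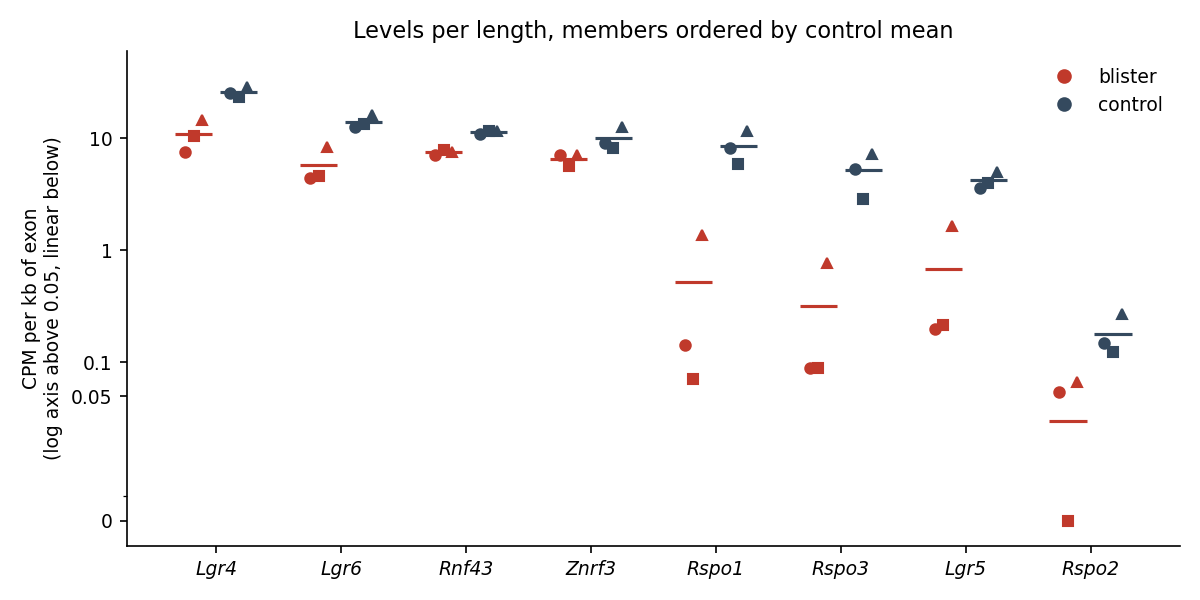
Level of each member in CPM per kb of exon, in each library (symbols: circle library 1, square library 2, triangle library 3) and as group mean (bar), ordered by the control mean. The axis is logarithmic above 0.05 and linear below. Both ligases stay between 5.58 and 12.6 CPM per kb in all libraries, while Rspo1, Rspo3 and Lgr5 lie at or below 0.215 CPM per kb in blister libraries 1 and 2.

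The groups were not balanced for sex-linked RNA, so the members were also compared among libraries alike in it. Blister libraries 1 and 2 and control library 1 were high in Xist, the RNA of the inactive X chromosome, and the other 3 were high in the Y-linked gene Ddx3y. Among Xist-high libraries the log2 difference, blister minus control (CPM + 0.5), was -4.54 for Rspo1, -1.03 for Rspo2, -4.45 for Rspo3, -1.49 for Lgr4, -3.83 for Lgr5, -1.46 for Lgr6, -0.53 for Znrf3 and -0.54 for Rnf43. Among Ddx3y-high libraries, where blister library 3 was the only blister library, it was -2.39, -0.79, -2.34, -0.82, -1.42, -0.83, -0.54 and -0.63 for the same genes in the same order. No blister library reached the lowest control library for any of the 8. All 8 therefore had to be lower in blister within both sets, and the direction there is no check on sex-linked RNA. With 1 library of a group in each set there is no test.

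The promoters of Rspo1, the lowest relative to control among members with a promoter in the table used, and of Lgr4 and Lgr6, which fell by similar amounts, are shown for a view of their sequence. They are the 250 bases before the RefSeq start site on build GRCm38.p6, written 5′ to 3′ on the gene's strand, and CCAAT boxes (CCAAT on either strand) are in capitals. Rspo1 lies on the plus strand at chr4:124986180-124986429, Lgr4 on the plus strand at chr2:109917397-109917646 and Lgr6 on the minus strand at chr1:135105277-135105526.
Rspo1: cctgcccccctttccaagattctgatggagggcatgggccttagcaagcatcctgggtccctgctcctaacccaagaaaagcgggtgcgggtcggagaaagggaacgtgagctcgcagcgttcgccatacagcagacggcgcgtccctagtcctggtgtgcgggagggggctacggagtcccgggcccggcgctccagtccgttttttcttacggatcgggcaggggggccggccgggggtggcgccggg
Lgr4: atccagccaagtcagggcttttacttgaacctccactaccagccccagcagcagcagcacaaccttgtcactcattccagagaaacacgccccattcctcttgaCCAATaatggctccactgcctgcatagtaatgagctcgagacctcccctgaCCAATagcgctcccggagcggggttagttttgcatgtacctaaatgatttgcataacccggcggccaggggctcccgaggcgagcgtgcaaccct
Lgr6: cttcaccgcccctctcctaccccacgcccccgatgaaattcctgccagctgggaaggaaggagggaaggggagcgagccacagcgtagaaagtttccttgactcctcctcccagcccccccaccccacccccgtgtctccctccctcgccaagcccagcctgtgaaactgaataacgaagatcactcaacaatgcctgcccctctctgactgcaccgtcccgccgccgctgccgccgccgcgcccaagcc
Windows of 4 members were found (5 windows, Rnf43 with 2). The core that TCF and LEF factors bind, searched on both strands as CTTTG followed by 2 bases that were each A or T, occurred in 0 of these 5 windows and in 14.8% of all 32851 windows of that length. A CCAAT box occurred in 1 of the 5, that of Lgr4 with 2 boxes, and in 33.8% of all windows.

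The receptors that the ligases act on fell in part. Of 12 Frizzled and LRP genes tested, 5 fell (Fzd1, Fzd2, Fzd3, Fzd5 and Fzd7) and Fzd6 rose, and their median log2 fold change was -0.61, against 0.00 over all genes. Over all tested genes 11.6% were called lower and 9.74% higher. Fzd6 averaged 138 ± 12.9 CPM in blister and 103 ± 3.98 CPM in control libraries (SD, n = 3 each, edgeR adjusted p = 0.0343). Its call was lost with upper-quartile scaling, with library size alone, with the replicate block, with the Xist level as covariate, and in every fit with a library left out other than that without blister library 3. Fzd2 averaged 24.7 ± 6.95 CPM in blister and 79.1 ± 7.02 CPM in control libraries (SD, n = 3 each), which is -1.67 ± 0.20 on the log2 scale (SE, adjusted p = 0.00658 in edgeR). Fzd1 averaged 45.8 ± 16.7 CPM in blister and 101.2 ± 16.1 CPM in control, and Fzd5 18.7 ± 9.22 CPM in blister and 51.98 ± 8.81 CPM in control (edgeR adjusted p = 0.0221 and 0.0215). The Fzd1 call was lost without blister library 1 or 2 or control library 1 or 3 (adjusted p of 0.0715, 0.0605, 0.0687 and 0.0618), and that of Fzd5 without blister library 1 or control library 1 or 3 (adjusted p of 0.0784, 0.068 and 0.0595). The number of these genes called lower lay between 1 and 6 when single libraries were left out.

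Of 14 Wnt ligand genes tested, 2 rose (Wnt3 and Wnt4) and 6 fell (Wnt2b, Wnt5a, Wnt5b, Wnt6, Wnt10b and Wnt11), with a median log2 fold change of -0.72. The shares over all tested genes were 9.74% called higher and 11.6% lower. Wnt5a did not reach the minimum level of the test in every blister library. Wnt4, an epidermal Wnt, stood at 656 ± 93.3 CPM in blister and 378 ± 30.6 CPM in control libraries (log2 fold change 0.80 ± 0.15 (SE), edgeR adjusted p = 0.0145, or 0.0595 without control library 1). Wnt3 stood at 92.8 ± 10.3 CPM in blister and 69.3 ± 5.19 CPM in control libraries (edgeR adjusted p = 0.0487). Its call was lost with upper-quartile scaling, library size alone, no filter, the replicate block, robust estimation or the Xist level as covariate, and in every fit with a library left out other than that without blister library 3. Wnt6 stood at 43.4 ± 1.38 CPM in blister and 82.1 ± 9.67 CPM in control (edgeR adjusted p = 0.0074), and Wnt11 at 8.08 ± 5.17 and 31.7 ± 4.78 CPM (edgeR adjusted p = 0.0178). The Wnt11 call was lost without blister library 1 (adjusted p = 0.0656) and without control library 1 (adjusted p = 0.0607). The number of ligand genes called higher lay between 0 (without control library 1) and 2, and that called lower between 1 and 6, when single libraries were left out.

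Targets and feedback inhibitors of β-catenin other than the members mostly fell. Of 10 tested, 9 fell, where 11.6% of all tested genes were called lower. The other, Sp5, averaged 4.95 ± 1.36 CPM in blister and 8.62 ± 1.31 CPM in control libraries (SD, n = 3 each, edgeR adjusted p = 0.0664). The median log2 fold change of the 10 was -1.6, and 5 to 9 were called lower when single libraries were left out. Nkd1, which binds Dishevelled and damps Wnt signalling, stood at 6.24, 4.13 and 8.41 CPM in blister, against 40.8, 37.95 and 51.8 CPM in control libraries. The groups were far apart, by -2.77 ± 0.26 on the log2 scale (SE, adjusted p = 0.00418 in edgeR). Notum, a secreted enzyme that inactivates Wnt proteins, averaged 2.70 ± 1.06 CPM in blister and 17.97 ± 4.49 CPM in control (edgeR adjusted p = 0.00679). Lef1, a transcription factor partner of β-catenin, averaged 18.02 ± 2.61 CPM in blister and 48.5 ± 8.08 CPM in control (edgeR adjusted p = 0.00658). Axin2, the standard reporter of the pathway, stood at 65.3 CPM in blister and 109.5 CPM in control (edgeR adjusted p = 0.0228).

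Of 11 tested genes of the intracellular machinery 1 rose and 2 fell, where 21.3% of all tested genes were called, and their median log2 fold change was -0.18. With library size alone 5 fell and the call of the gene that rose was lost. Dvl2, a Dishevelled protein through which ZNRF3 and RNF43 recognise Frizzled, averaged 36.4 ± 3.06 CPM in blister and 57.9 ± 1.65 CPM in control libraries (log2 fold change -0.67 ± 0.11 (SE), edgeR adjusted p = 0.0107). Tcf7l1, a mostly repressive TCF factor of follicle stem cells, averaged 17.7 ± 7.02 CPM in blister and 53.2 ± 7.16 CPM in control (edgeR adjusted p = 0.0118). Csnk1a1, a kinase of the β-catenin destruction complex, was at 439 ± 92.04 CPM in blister and 283 ± 9.26 CPM in control (edgeR adjusted p = 0.0362), a call lost without blister library 1 or control library 1, 2 or 3 (adjusted p of 0.0924, 0.119, 0.102 and 0.0841), with library size alone (adjusted p = 0.101) and with the Xist level as covariate (adjusted p = 0.0688).

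Genes with the most similar profiles over the 6 libraries were found for each member as those with the smallest root mean square difference of centred log2 CPM among 13630 genes. For Rspo1 the nearest were Egflam (0.187) and Rspo3 (0.192), and for Rspo3 they were Ndnf (0.161) and Rspo1 (0.192), where the median gene differed from them by 2.07 and 1.99. Lgr5 was nearest to the metalloprotease genes Adamts20 (0.257) and Adamts4 (0.294), and Rspo1 ranked 23rd from it. Lgr4 was nearest to Timp3 (0.053), a metalloprotease inhibitor gene, and Tle2 (0.055), a corepressor gene, and Lgr6 to Man2a2 (0.0747) and the laminin gene Lama5 (0.0892). Lgr6 ranked 51st from Lgr4 at 0.146. Znrf3 was nearest to Tmem67 (0.0713) and Cd55 (0.0725), and Rnf43 to Gyltl1b (0.034) and Cacfd1 (0.0401). These distances describe 6 libraries that share 2 groups, and a small one mostly says that a gene has a similar difference between them.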

How the data were processed

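The authors deposited raw read counts per gene symbol, 1 table per library. The submitters' processing notes name HISAT2 2.0.0, an aligner, featureCounts, a read counter, and the builds NCBIM37 and mm9. These sources give no strand setting, so overlapping antisense genes cannot be told apart. Tests used edgeR 4.0.16 under R 4.3.3, with filterByExpr by group (minimum count 10, minimum total 15, about 0.789 CPM in 3 libraries), TMM scaling, quasi-likelihood F-tests with the group as the only term, two-sided p-values adjusted by Benjamini-Hochberg over 14028 genes, threshold 0.05. CPM is counts over library total times TMM factor, and the SE of a log2 fold change was taken from the F statistic. The procedure was tested on simulated data. Pairs of libraries within a group differed well beyond sampling noise. Members and gene lists were chosen with earlier results of these data known. Text names all members, the 3 smallest p-values of each pathway list, the most similar profiles (mean of at least 1 CPM), and some list genes chosen after their values were seen. Alternatives covered scaling, filters, DESeq2 1.42.0, robust estimation, a replicate block, Xist as covariate, the 50 most abundant genes and left-out libraries. Promoters come from RefSeq (GRCm38.p6). Intervals cover counting error only, and the floor for Rspo4 covers that of the blister counts only.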

Additional observations from a re-analysis of the deposited data

How the results depend on the processing

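All 119 log2 fold changes of the 7 tested members over 17 alternatives were negative, and 106 stayed on their side of the threshold. The groups did not overlap for any of these members, so leaving libraries out could hardly have changed the sign. Rspo3, Lgr4 and Rnf43 were called in all 17, Lgr6 in 16, Rspo1 in 15, Lgr5 in 11 and Znrf3 in 4. The number of members called lower was 6, and 3 to 6 when single libraries were left out (3 without blister library 1). Over all genes, 1367 were called higher and 1626 lower. With library size alone these were 544 and 2831, with the Xist level as covariate 694 and 1037, and with single libraries left out 306 to 1998 and 479 to 2063. The log2 ratio of Lgr4 to Lgr6 (difference 0.0565) lay between -0.0704 (without blister library 2) and 0.128 with single libraries left out, and that of Znrf3 to Rnf43 (0.017) between -0.121 (without control library 2) and 0.182, also below 0 without blister library 1 or 3 or control library 1. The cause was not tested. Same-numbered libraries did not deviate together (correlations of 0.212, -0.259 and 0.0107 over genes), so the numbers were not read as pairs. A replicate block gave 1365 and 1511 calls and 7 members lower, Znrf3 included (adjusted p = 0.0358). Depth limits the R-spondins most, at 0 to 31 counts in blister libraries.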
